A study of Zea mays with 12 samples.

Results

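The 3 genes described here are sdh1 (GRMZM2G175423), which encodes sorbitol dehydrogenase, and gpc4 (GRMZM2G176307) and gpc3 (GRMZM2G071630), which encode cytosolic glyceraldehyde-3-phosphate dehydrogenase (GAPDH), out of 39448 gene models measured in maize endosperm. They were chosen by their measured FPKM: higher when O2 was lost, with and without RNA interference against Pbf, and different by replicate number. Differences between genotypes that differ in O2, the interaction built from them, and differences of replicate 1 from the other replicates, are therefore given for these 3 genes as a description, with no test. Tests are given for the effect of the RNA interference construct with and without O2. These tests use the same libraries as the comparisons that chose the genes.

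Endosperm, the storage tissue of the kernel, was taken 16 days after pollination from field-grown plants of 4 genotypes, with 3 biological replicates each and 12 libraries in all. They were the wild type (WT), an opaque2 mutant (o2), plants carrying an RNA interference construct against Pbf (PbfRNAi), and the combination of that construct with the mutation (PbfRNAi;o2, called the combined genotype). The sources used here do not give the o2 allele, its genetic background, the promoter that drives the construct, the number of independent transgenic events or the number of ears in a replicate. Opaque2 (O2) is a bZIP transcription factor of the endosperm and Pbf (prolamin-box binding factor) a DOF transcription factor, and both are known as activators of zein storage protein genes.

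Sugar reaches the kernel as sucrose, which is cleaved to glucose and fructose, phosphorylated, and either built into starch or broken down through glycolysis. Sorbitol dehydrogenase interconverts fructose and sorbitol beside this route. GAPDH acts on triose phosphate in the middle of glycolysis and makes NADH, which is used again in fermentation when oxygen is scarce, and maize gpc3 and gpc4 are known for being induced by oxygen deprivation in seedlings, unlike gpc1 and gpc2.

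Values are FPKM (fragments set against transcript length and the mapped total of the library), so that levels of different genes can be set side by side. The FPKM of all models summed to between 430405 and 519817 in the 12 libraries, and the 10 most abundant models took 18.5% to 22.4% of that sum in the combined genotype, 21.4% to 28.0% in o2, 33.2% to 37.5% in PbfRNAi and 39.0% to 41.5% in WT. The median gene stood higher in o2 than in WT by a log2 difference of 0.41, in the combined genotype than in PbfRNAi by 0.32, in PbfRNAi than in WT by 0.16 and in the combined genotype than in o2 by 0.05. Values called scaled below are relative to this shift, after median-of-ratios scaling. The o2 transcript (GRMZM2G015534) stood at 189 to 229.7 FPKM in WT, 97.3 to 133 in PbfRNAi and below 1 in every library of o2 and of the combined genotype, and pbf1 (GRMZM2G146283) at 97.6 to 110 in WT, 242 to 331 in o2, 39.1 to 56.7 in PbfRNAi and 54.9 to 64.8 in the combined genotype. A second, lower model named pbf1 (GRMZM2G146267) overlapped between WT (11.5 to 12.6) and PbfRNAi (10.5 to 13.9). It stood at 16.7 to 20.0 in o2 and 13.2 to 15.2 in the combined genotype. Starch synthesis genes that mark starchy endosperm (sh2, bt2 and wx1) were abundant, and the 3 green tissue models found summed to below 1 FPKM in every library. Of the 3 models found of an embryo list, ole1 stood at 305 to 551 FPKM over the 12 libraries. glb1 stood at 5.89 to 160 FPKM and lec1 at 0. The share of other tissues in the libraries was not tested.

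sdh1 was among the most abundant transcripts of this tissue, ranking between 20 and 32 among all models in WT, 7 or 8 in o2, 23 to 27 in PbfRNAi and 9 to 14 in the combined genotype. In WT it stood at 1787 FPKM in replicate 1, 1157 in replicate 2 and 1159 in replicate 3. In o2 it stood at 6474, 6469 and 6061 FPKM. These 3 libraries held the highest values of the 12 and lay within a narrow range. In PbfRNAi the values were 2220.5, 2012 and 2351 FPKM. Those of the combined genotype were 5611, 4385 and 4198 FPKM. The 4 genotypes thus formed 4 separate ranges for sdh1, in the order WT, PbfRNAi, combined genotype and o2, with no library of one genotype inside the range of its neighbour.

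The mean of sdh1 was 1368 ± 363 FPKM in WT (SD, n = 3) and 6335 ± 237 in o2, a ratio of means of 4.63. Taken by replicate number the ratio was 3.62, 5.59 and 5.23. With the construct the mean went from 2194.5 ± 171 FPKM in PbfRNAi to 4732 ± 768 in the combined genotype, a ratio of 2.16, and by replicate number 2.53, 2.18 and 1.79. On the log2(FPKM + 1) scale the difference was 2.24 in o2 against WT (scaled 1.73) and 1.10 in the combined genotype against PbfRNAi (scaled 0.73). In a bulk tissue sample a change in RNA per cell and a change in the share of cells that make the transcript cannot be told apart.

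gpc4 stood at 528 FPKM in replicate 1 of WT, 183 in replicate 2 and 182 in replicate 3. In o2 it stood at 1131, 1128 and 1106 FPKM. The 3 o2 libraries were nearly level, while replicate 1 of WT stood well above the other WT libraries. In PbfRNAi the values were 778, 282 and 294 FPKM. Those of the combined genotype were 2090.3, 929 and 973 FPKM. Replicate 1 was the highest library in both genotypes with the construct, and the combined genotype held both the highest gpc4 value of the 12 libraries, in replicate 1, and values below those of o2, in replicates 2 and 3.

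gpc3 followed the same pattern at a slightly lower level. It stood at 492, 162 and 160.4 FPKM in WT and at 952, 1007 and 979.9 FPKM in o2. In PbfRNAi it stood at 573, 221 and 238 FPKM, and in the combined genotype at 1571, 711 and 723 FPKM. For gpc3 and gpc4 alike, every library without O2 lay above every library with O2 and the same construct status, while WT overlapped PbfRNAi and o2 overlapped the combined genotype, so that the order within these 2 pairs of genotypes did not exceed the spread of the libraries. Reads can be shared between these related gene copies, so the split of a signal between gpc3 and gpc4 is uncertain.

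**Figure D1:**
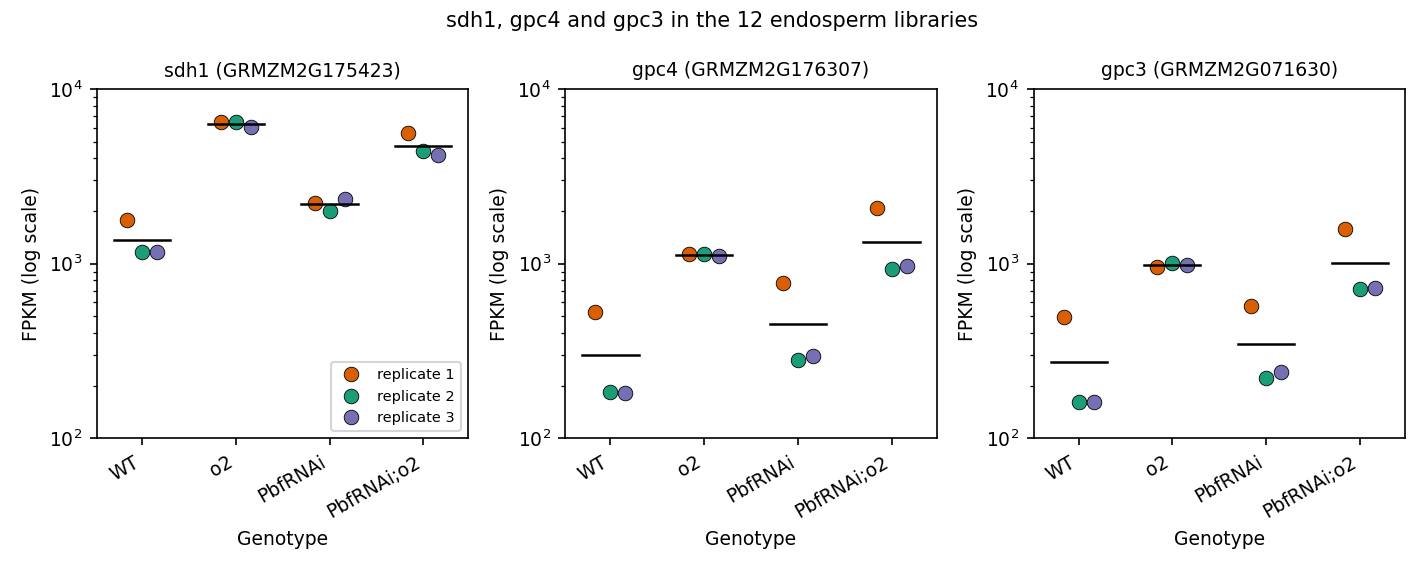
FPKM of sdh1, gpc4 and gpc3 on a log axis in the 4 genotypes, with 1 point for each library coloured by replicate number and a line at the mean of 3 libraries. For sdh1 the 4 genotypes do not overlap, from 1157 FPKM in the lowest WT library to 6474 in the highest o2 library, and for gpc4 and gpc3 replicate 1 stands above replicates 2 and 3 in every genotype except o2.

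The mean of gpc4 was 298 ± 199.9 FPKM in WT (SD, n = 3) and 1122 ± 13.5 in o2, a ratio of means of 3.77, and 451 ± 283 in PbfRNAi and 1331 ± 658 in the combined genotype, a ratio of 2.95. The mean of gpc3 was 271 ± 191 FPKM in WT and 979.6 ± 27.6 in o2, a ratio of 3.61, and 344 ± 199 in PbfRNAi and 1002 ± 493 in the combined genotype, a ratio of 2.91. Replicate 1 sets much of these ratios. By replicate number, o2 over WT was 2.14, 6.18 and 6.08 for gpc4 and 1.94, 6.22 and 6.11 for gpc3. With the construct the ratios by number lay closer together, at 2.69, 3.30 and 3.31 for gpc4 and 2.74, 3.22 and 3.04 for gpc3. Leaving out PbfRNAi replicate 1 alone raised the combined over PbfRNAi ratio to 4.63 for gpc4 and 4.37 for gpc3, and leaving out replicate 1 of the combined genotype alone lowered it to 2.11 and 2.08. On the log2(FPKM + 1) scale the o2 against WT difference was 2.11 for gpc4 (scaled 1.59) and 2.06 for gpc3 (scaled 1.55), and that of the combined genotype against PbfRNAi was 1.62 (scaled 1.26) and 1.58 (scaled 1.21).

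All 3 genes were higher without O2, with no overlap of the libraries, in both comparisons. Of the 17058 tested genes, which reached 1 FPKM in at least 3 libraries and include all 3 described here, 56.6% were higher with no overlap in o2 against WT and 46.6% in the combined genotype against PbfRNAi, and limma called 48.6% and 38.9% higher at an adjusted p of 0.05. The choice of the genes fixed this direction, and nothing is read from the count. In size, 75 tested genes had a log2 difference as large as that of sdh1 or larger in o2 against WT, 94 as large as gpc4 and 98 as large as gpc3. For the combined genotype against PbfRNAi these numbers were 1092, 385 and 411. The place of sdh1 among all genes was thus lower with the construct than without it, and both differences were at least as large in 53 genes for sdh1, 49 for gpc4 and 52 for gpc3.

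The construct against Pbf went with more sdh1 transcript when O2 was present. The ratio of the PbfRNAi to the WT mean was 1.60, or 1.24, 1.74 and 2.03 by replicate number, with no overlap of the libraries. Across all tested genes 30.5% were higher with no overlap in this comparison, and limma called 18.2% higher and 5.16% lower. For sdh1 the log2 difference was 0.71 ± 0.19 (SE; limma adjusted p = 0.0176), 1687 tested genes had one as large or larger, and it was larger than the all-gene median of 0.16. The call did not hold after median-of-ratios scaling (0.50, adjusted p = 0.0547) or scaling to genes outside the 100 most abundant (0.45, 0.0741), nor without WT replicate 2 (0.0883), WT replicate 3 (0.0871) or PbfRNAi replicate 3 (0.0641). The WT libraries of this comparison also chose the gene, and a low WT value favours a higher ratio in both.

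Without O2 the construct went with less sdh1 transcript. The combined genotype stood at 0.747 of the o2 mean, or 0.867, 0.678 and 0.693 by replicate number, again with no overlap, where 13.9% of tested genes were lower with no overlap and limma called 7.84% lower and 14.4% higher. The log2 difference of −0.43 ± 0.19 did not pass (limma adjusted p = 0.128; scaled −0.50, 0.0514). It passed when scaled to genes outside the 100 most abundant (−0.59, 0.0216) and without the 4 replicate 1 libraries (−0.55, 0.00185). In these fits, in that order, limma called 2403 and 4296 genes lower. The o2 libraries had also chosen the gene, and a high o2 value favours a ratio below 1 here.

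The O2 difference of sdh1 was smaller with the construct, at 1.10, than without it, at 2.24. The interaction, which is the combined genotype minus PbfRNAi less the o2 minus WT difference, was −1.14 ± 0.27 on the log2 scale (SE; scaled −0.99), where the median of all tested genes was −0.12, and it lay between −1.35 and −1.04 when 1 library was left out. It is made of the 2 differences that chose the gene, so it is a description with no test, and choosing on a large difference in o2 favours a smaller one elsewhere.

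For gpc4 and gpc3 the effects of the construct did not pass over all 12 libraries. PbfRNAi stood at 1.52 times the WT mean for gpc4 (log2 0.62 ± 0.49, limma adjusted p = 0.408) and 1.27 times for gpc3 (0.41 ± 0.49, 0.598). The combined genotype stood at 1.19 times the o2 mean for gpc4 (0.14 ± 0.49, limma adjusted p = 0.880) and 1.02 times for gpc3 (−0.07 ± 0.49, 0.939). The interactions, given without a test, were −0.48 ± 0.70 and −0.48 ± 0.69. With errors of this size a difference as large as that of sdh1 could not be told from none. Leaving out 1 library moved the PbfRNAi over WT ratio from 2.48 (without WT replicate 1) to 0.966 (without PbfRNAi replicate 1) for gpc4, and from 2.13 to 0.845 for gpc3.

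Among replicates 2 and 3 alone the effects of the construct on both GAPDH genes had the sign of those on sdh1. Without the 4 replicate 1 libraries, PbfRNAi exceeded WT by a log2 difference of 0.66 for gpc4 (limma adjusted p = 9.5e-05) and 0.51 for gpc3 (0.000466), and the combined genotype was below o2 by −0.23 (0.0218) and −0.47 (0.000675). Such calls were common in this fit. Limma called 6430 genes higher and 1645 lower in PbfRNAi against WT, and 3792 higher and 4296 lower in the combined genotype against o2. The genes were chosen in part by replicate number, so leaving out replicate 1 is not independent of that choice. The interactions, again as a description, were then −0.89 for gpc4 and −0.98 for gpc3, beside −1.45 for sdh1. These fits rest on 2 libraries in each genotype, which were closer to each other than to replicate 1 in each genotype (r = 0.989 to 0.995 across genes, against 0.955 to 0.970), and the p-values measure only the spread between them.

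Maize has 2 further cytosolic GAPDH genes, and both had smaller differences than gpc3 and gpc4 between genotypes that differ in O2, while gpc1 differed more than either in the combined genotype against o2. gpc1 (GRMZM2G046804) stood at 122 ± 4.52 FPKM in WT (SD, n = 3), 145 ± 6.09 in o2, 90.3 ± 7.17 in PbfRNAi and 97.3 ± 5.01 in the combined genotype. It fell in PbfRNAi against WT (log2 −0.44 ± 0.10, limma adjusted p = 0.00668; scaled −0.65, 0.000187) and in the combined genotype against o2 (−0.57 ± 0.10, 0.00112; scaled −0.64, 0.000223), and both calls held without each library in turn. Its difference in o2 against WT was 0.25 ± 0.10 (0.0518), below the all-gene median, and negative when scaled (−0.27, 0.0511). It passed as a rise with the replicate number as a block (limma adjusted p = 0.0446) and as a fall with scaling to genes outside the 100 most abundant (−0.35, 0.00819). In the combined genotype against PbfRNAi it was 0.11 (0.386), and passed as a fall with both scalings (−0.25, 0.0443, and −0.38, 0.00293).

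gpc2 (GRMZM2G180625) stood at 192 ± 25.7 FPKM in WT (SD, n = 3), 267 ± 52.3 in o2, 196 ± 22.2 in PbfRNAi and 236 ± 10.1 in the combined genotype. It rose in o2 against WT on the FPKM scale (log2 0.46 ± 0.16, limma adjusted p = 0.0281), near the all-gene median, and not when scaled (−0.05, 0.872). That call was lost without WT replicate 1 (0.102), WT replicate 2 (0.0527), o2 replicate 2 (0.117) or o2 replicate 3 (0.107). Other GAPDH genes were much lower. GAPCP (GRMZM2G104632), the plastid glycolytic form, stood at 29.9 ± 1.31 FPKM in WT and 51.6 ± 12.8 in o2 (log2 0.74 ± 0.17, limma adjusted p = 0.004; scaled 0.23, 0.32), and rose in the combined genotype against PbfRNAi as well (0.71 ± 0.17, 0.00533; scaled 0.36, 0.0941). The non-phosphorylating gpn1 lay between 0.584 and 1.97 FPKM, and gpa1 and gpb1, of photosynthetic GAPDH, did not exceed 0.0793 FPKM and were not tested.

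The 4 cytosolic genes together summed to 883 ± 370.3 FPKM in WT and 1082 ± 471 in PbfRNAi, and without O2 to 2514 ± 80.1 in o2 and 2666 ± 1142.5 in the combined genotype (SD, n = 3). gpc1 and gpc2 made up 314 ± 21.6 FPKM of this in WT and 287 ± 23.7 in PbfRNAi, and 412 ± 57.8 in o2 and 333 ± 10.8 in the combined genotype. The share of gpc3 and gpc4 in the sum was 77.8% in WT replicate 1, 51.9% in replicate 2 and 50.7% in replicate 3, and 85.7%, 82.5% and 82.6% in o2. With the construct it was 83.2%, 64.8% and 62.9% in PbfRNAi and 91.9%, 83.2% and 83.1% in the combined genotype. WT replicates 2 and 3 were thus the libraries in which the 2 pairs of genes stood about level. Among the libraries with O2, replicate 1 of WT (77.8%) stayed below the shares seen without O2. Replicate 1 of PbfRNAi (83.2%) lay within their range.

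**Figure D2:**
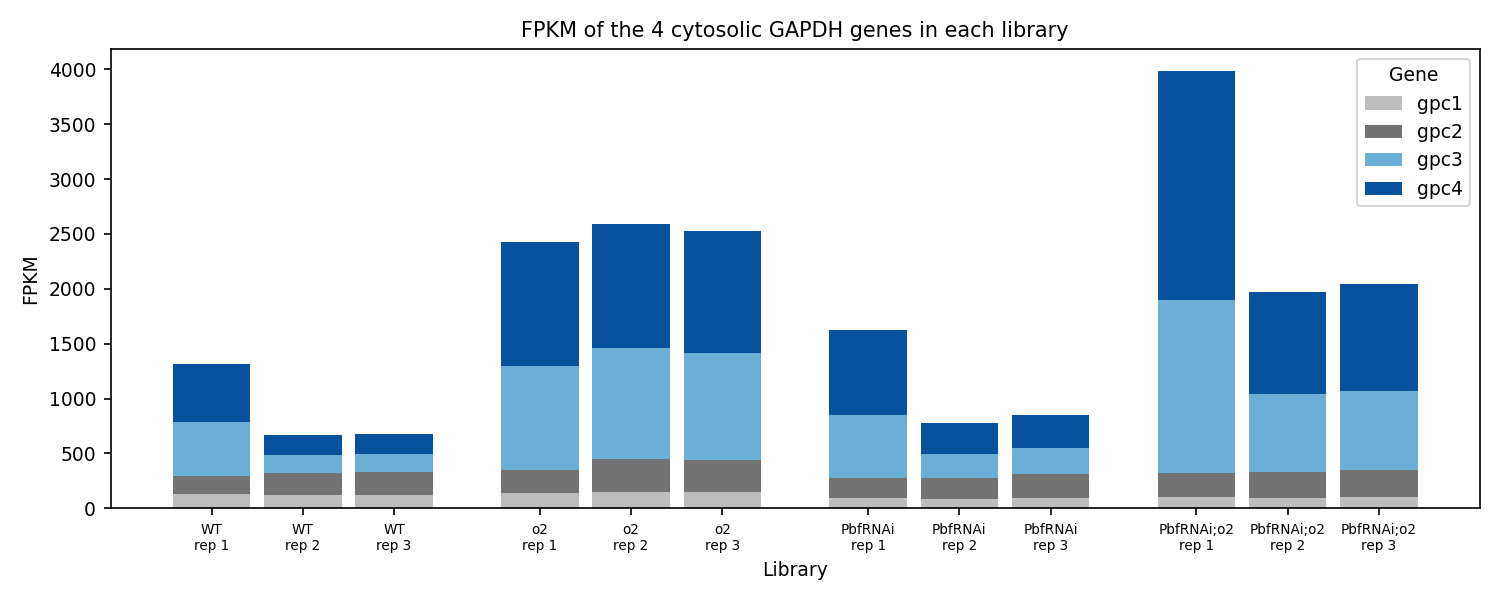
FPKM of gpc1, gpc2, gpc3 and gpc4 stacked for each of the 12 libraries (bars start at 0; each bar is 1 library). The grey part, gpc1 and gpc2, stays between 273 and 453 FPKM, while the blue part, gpc3 and gpc4, runs from 342 FPKM in WT replicate 3 to 3661 in replicate 1 of the combined genotype.

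In 3 of the 4 genotypes replicate 1 differed from replicates 2 and 3 more in gpc4 and gpc3 than in nearly all other genes. On the log2(FPKM + 1) scale gpc4 in replicate 1 stood above the mean of the other 2 replicates by 1.53 in WT, 1.43 in PbfRNAi and 1.14 in the combined genotype, and by 0.02 in o2. For gpc3 the differences were 1.60, 1.32, 1.13 and −0.06. The median of all tested genes lay at 0.08, 0.02, 0.12 and −0.13 in the same order of genotypes. In WT only 0.27% of tested genes had a difference as high as that of gpc4, in PbfRNAi 0.299% and in the combined genotype 1.69%, but in o2 30.5%. sdh1 moved less, by 0.63 in WT, 0.03 in PbfRNAi, 0.39 in the combined genotype and 0.05 in o2. The deviations of gpc3 and gpc4 from their genotype means correlated at r = 0.998 over the 12 libraries, and those of sdh1 with them at 0.822 and 0.79, as a description.

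Other genes moved with replicate 1 too. All 6 heat shock genes found (hsp101, hsp26, hsp70, hsp22, hsp18f and hsp82) were higher in replicate 1 of every genotype, o2 included, by a median log2 difference of 2.41 in WT, 2.85 in PbfRNAi, 3.86 in the combined genotype and 1.74 in o2. Their summed level was 471.9 FPKM in WT replicate 1 against 58.3 and 59.0 in the others, 459.9 against 41.6 and 44.5 in PbfRNAi, 1717 against 134 and 139.6 in the combined genotype and 953 against 250.2 and 259.6 in o2. Of the 11 low-oxygen genes, 8 were higher in replicate 1 in WT, 7 in PbfRNAi, 9 in the combined genotype and 5 in o2. The median of all tested genes also lay above 0 in WT, PbfRNAi and the combined genotype. The counts include genes that were nearly level, such as pdc2 in WT (37.2 FPKM against 36.4 and 37.4). Among the low-oxygen genes adh1, which encodes the alcohol dehydrogenase of fermentation, differed by 1.56 in WT, 1.08 in PbfRNAi, 1.46 in the combined genotype and 0.40 in o2. It was thus higher in replicate 1 of o2 as well, where gpc4 was nearly level (1131 FPKM against 1128 and 1106). Others were lower in replicate 1, among them adh2, the second alcohol dehydrogenase, by −1.43 in WT, −0.97 in PbfRNAi and −1.84 in o2 (0.16 in the combined genotype). The sucrose synthase gene sus1 was lower in every genotype, by −0.59 in WT, −0.86 in PbfRNAi, −0.33 in the combined genotype and −0.98 in o2. The glycolytic genes ald1 (aldolase) and Pgk-2 (phosphoglycerate kinase) also differed, by 1.15 and 1.31 in WT, 1.24 and 1.32 in PbfRNAi, 0.92 and 1.05 in the combined genotype and 0.46 and 0.17 in o2. All 7 tested markers of the basal transfer layer, the cells through which sugar enters the endosperm, were lower in replicate 1 of every genotype, by a median of −0.44 in WT, −1.14 in PbfRNAi, −1.52 in the combined genotype and −0.52 in o2. gpc1 stood within 0.13 of 0 in each genotype and gpc2 between −0.52 and −0.11. The part of heat shock, low oxygen or the makeup of the tissue in the replicate 1 values of gpc3 and gpc4 was not tested.

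**Figure D3:**
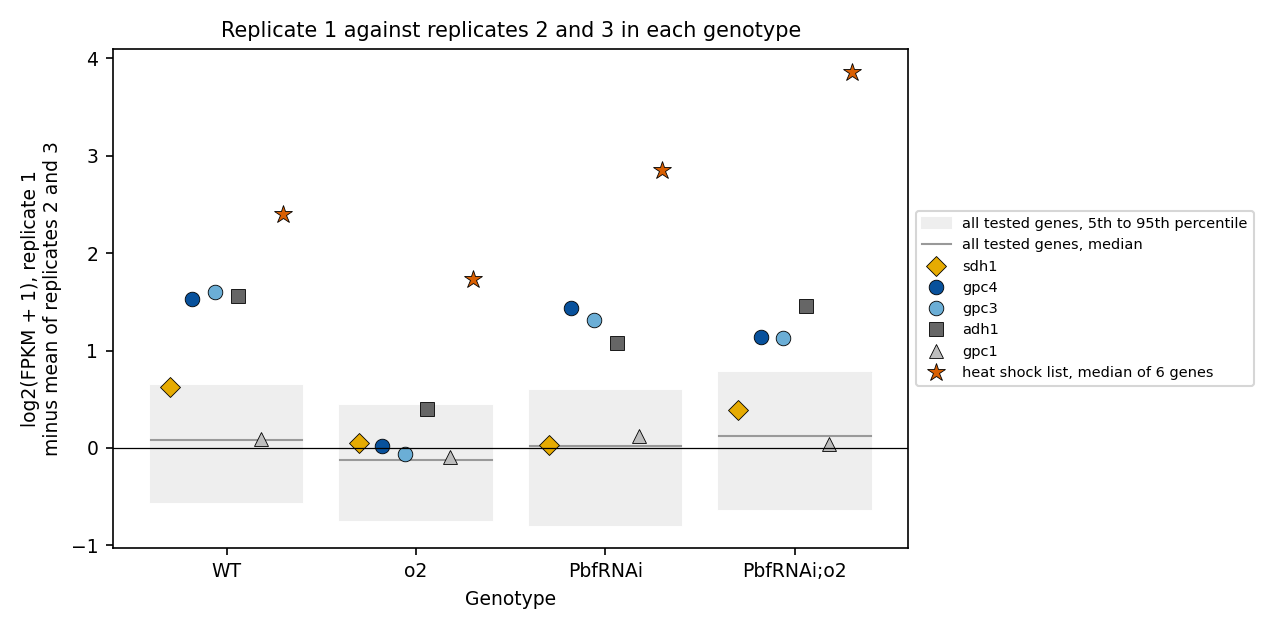
Difference of replicate 1 from the mean of replicates 2 and 3 on the log2(FPKM + 1) scale in the 4 genotypes, for sdh1, gpc4, gpc3, adh1, gpc1 and the median of 6 heat shock genes, over a grey band from the 5th to the 95th percentile of all tested genes with their median as a line. gpc4 and gpc3 lie above the band in WT, PbfRNAi and the combined genotype and inside it in o2, where the heat shock median is at 1.74.

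The rest of the route from sucrose to pyruvate and to fermentation was read from 31 further models, 25 of them tested, in lists that overlap in part. In o2 against WT 9 of the 25 were called higher and 0 lower (limma over all genes; 12 and 0 at an unadjusted p under 0.05), where 48.6% of tested genes were called higher and 2.63% lower, and the median log2 difference was 0.46 beside 0.41 for all tested genes. When scaled 1 was higher and 3 were lower, beside 8.85% and 7.94% of tested genes, and with the replicate block 15 and 1. For the combined genotype against PbfRNAi 10 were higher and 1 lower, beside 38.9% and 6% of tested genes, with a median of 0.57 beside 0.32, and 3 higher and 3 lower when scaled, beside 15.2% and 12.9%, and 13 and 1 with the block. Shares of all tested genes, here and in the paragraphs below, are from fits without the block. Nothing is read from the blocked counts of list genes. The differences of sdh1, gpc4 and gpc3 in o2 against WT, between 2.06 and 2.24, lay above those of all 25, the largest of which was the 1.81 of eno1, a rise for which the 3 genes had been chosen. In the combined genotype against PbfRNAi gpc4 (1.62) and gpc3 (1.58) lay above all 25, but sdh1 (1.10) lay below mn1 (1.45), ald1 (1.27), Pgk-2 (1.22) and aldolase2 (1.18).

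Below hexose phosphate, 4 of 7 tested glycolysis genes rose in o2 against WT and 0 fell (limma), where 48.6% of tested genes were called higher. At an unadjusted p under 0.05 in limma 5 rose and 0 fell, and 5 rose with the block. The most abundant of those called were the enolase genes. eno1 (GRMZM2G064302) went from 129.6 ± 39.2 FPKM in WT to 462 ± 144 in o2 (SD, n = 3; log2 1.81 ± 0.26, limma adjusted p = 0.000297; scaled 1.30, 0.00241), the one gene of the 25 called higher when scaled. eno2 went from 254 ± 28.8 to 450.2 ± 54.0 (0.82 ± 0.13, limma adjusted p = 0.000489; scaled 0.30, 0.0593). ald1, the most abundant gene of the list, stood at 486 ± 244 FPKM in WT and 923 ± 178 in o2 (1.01 ± 0.41, limma adjusted p = 0.0574) and passed with the replicate block (0.000457). Between PbfRNAi and the combined genotype 4 of 7 rose, beside 38.9% of tested genes, among them eno1 (0.98 ± 0.26, limma adjusted p = 0.00998; scaled 0.61, 0.0551) and ald1 (1.27 ± 0.41, 0.026; scaled 0.91, 0.106), the call of ald1 being lost without PbfRNAi replicate 2 (0.104), PbfRNAi replicate 3 (0.0789) or replicate 1 of the combined genotype (0.0963).

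At the entry of sucrose and hexoses, 1 of 9 tested genes rose in o2 against WT and 0 fell, also at an unadjusted p under 0.05 (limma), beside 48.6% and 2.63% of tested genes, and 4 and 1 did with the replicate block. The gene called was sh1, the main sucrose synthase of the endosperm, at 1753 ± 170.1 FPKM in WT and 2769 ± 483 in o2 (log2 0.65 ± 0.21, limma adjusted p = 0.0234; scaled 0.13, 0.752), and its call was lost without replicate 1 (0.0726) or 2 (0.0527) of WT or replicate 2 (0.0822) or 3 (0.0895) of o2. Between PbfRNAi and the combined genotype 2 of 9 rose and 1 fell, beside 38.9% and 6% of tested genes, and 4 and 1 with the block. mn1, the cell wall invertase of the basal transfer layer and also in that marker list, went from 3.40 ± 1.07 FPKM in PbfRNAi to 12.1 ± 6.29 (1.45 ± 0.36, limma adjusted p = 0.00783; scaled 1.14, 0.0471), and the fructokinase gene frk1 fell from 9.76 ± 1.26 to 4.95 ± 1.31 (−0.87 ± 0.22, 0.00739; scaled −1.18, 0.00246). Fructose, the product of sorbitol dehydrogenase acting on sorbitol, is the substrate of fructokinase.

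Among 11 tested genes of the low-oxygen list, which shares 6 models with the lists above (eno1, ald1, sh1, sus1 and 2 models of the phosphohexose isomerase gene phi1), 4 rose in o2 against WT and 5 in the combined genotype against PbfRNAi, beside 48.6% and 38.9% of tested genes. The count was 1 in each when scaled, beside 8.85% and 15.2% of tested genes. It was 8 in each with the replicate block, for which no share of tested genes is given. In all of these 0 fell (limma; 0 at an unadjusted p under 0.05 as well). adh1, at 143 ± 98.1 FPKM in WT against 201 ± 33.9 in o2, and 181 ± 85.4 in PbfRNAi against 356 ± 227 in the combined genotype (SD, n = 3), did not pass in either without the block (log2 0.68 ± 0.50, limma adjusted p = 0.274, and 0.90 ± 0.50, 0.165) and passed in both with it (0.0153 and 0.00412). The pyruvate decarboxylase gene pdc2 (GRMZM2G038821) rose less in o2 against WT, from 37.0 ± 0.532 to 48.3 ± 3.41 FPKM (0.37 ± 0.14, limma adjusted p = 0.0419; scaled −0.13, 0.444), than in the combined genotype against PbfRNAi, from 37.1 ± 4.16 to 80.5 ± 16.6 (1.09 ± 0.14, 0.000111; scaled 0.73, 0.000502). Its interaction was 0.71 ± 0.20 (limma adjusted p = 0.0415; scaled 0.86, 0.00371), of the opposite sign to that of sdh1, and the unscaled call was lost when any of 9 of the 12 libraries was left out (up to 0.0961).

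**Figure D4:**
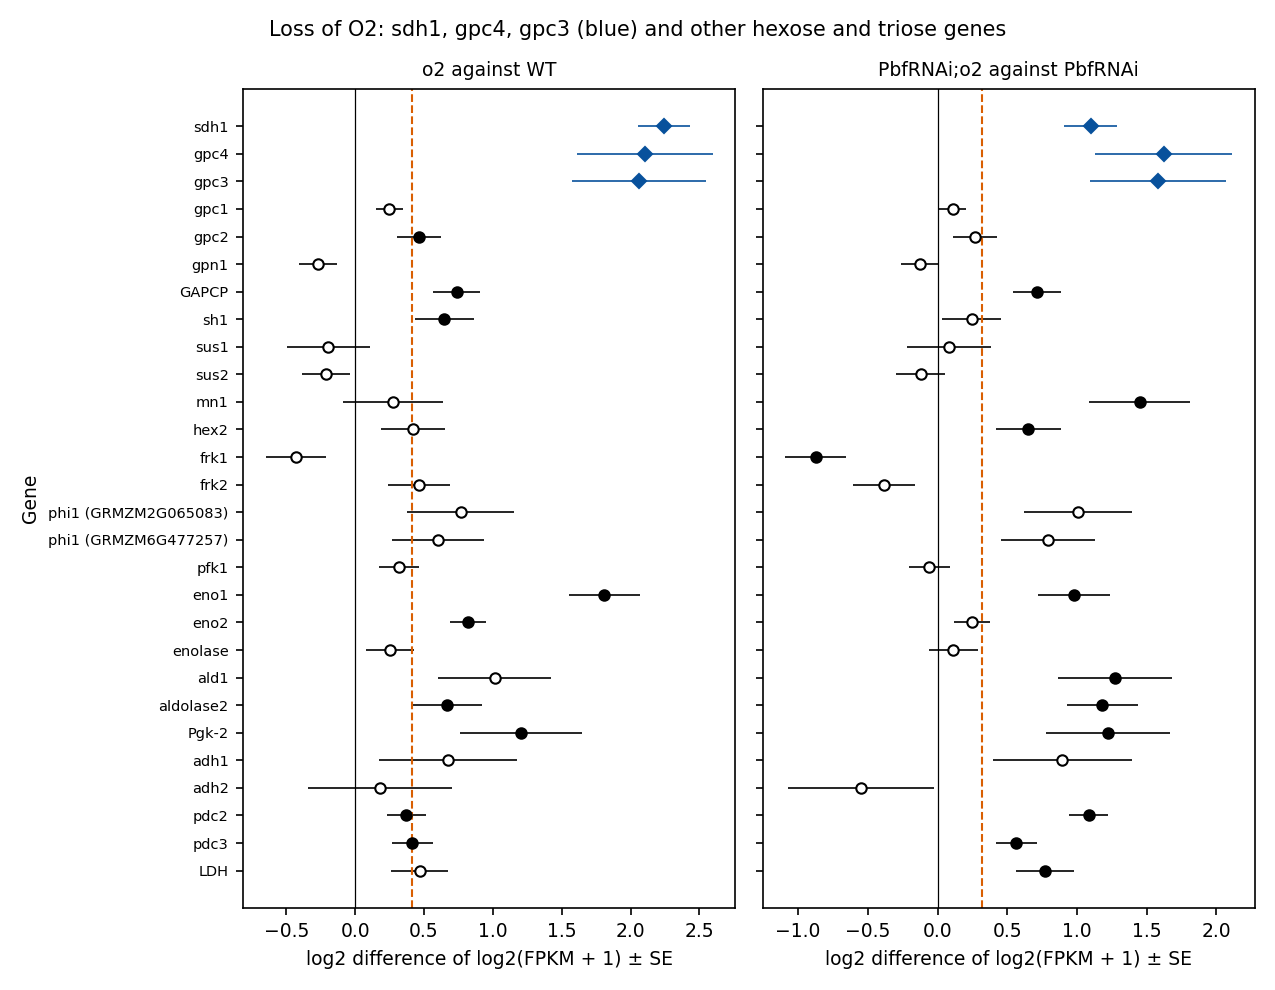
Log2 differences of log2(FPKM + 1), with SE bars, for o2 against WT (left) and the combined genotype against PbfRNAi (right) in sdh1, gpc4 and gpc3 (blue diamonds, not tested) and the 25 tested genes of sugar entry, GAPDH, glycolysis and the low-oxygen list (filled circles, limma adjusted p under 0.05; open circles, not called). The dashed line is the median of all tested genes, 0.41 on the left and 0.32 on the right, and sdh1, gpc4 and gpc3, which were chosen for this rise, lie to the right of every other gene on the left side, while sdh1 lies among the others on the right side.

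The construct alone went with calls in 4 of these genes. In PbfRNAi against WT 2 of 25 were called higher and 2 lower (3 and 2 with the replicate block), where limma called 18.2% and 5.16% of tested genes. eno1 was higher (log2 0.94 ± 0.26, limma adjusted p = 0.0217; scaled 0.72, 0.0355), as sdh1 was, but lost its call without WT replicate 2 (0.0878), WT replicate 3 (0.0914) or PbfRNAi replicate 1 (0.0731). The fructokinase gene frk2 was higher as well, at 28.4 ± 5.54 FPKM against 13.7 ± 1.57 in WT (SD, n = 3; 0.99 ± 0.22, 0.0072; scaled 0.79, 0.0458), while gpc1 and mn1 were lower, mn1 by −1.27 ± 0.36 (0.0263; scaled −1.48, 0.0184), lost without WT replicate 2 (0.0949), WT replicate 3 (0.0931), PbfRNAi replicate 1 (0.0944) or PbfRNAi replicate 2 (0.0515). Setting the combined genotype against o2, 3 were higher and 1 lower, beside 14.4% and 7.84% of tested genes, and 6 and 2 with the replicate block. Those higher included aldolase2, at 533 ± 209 FPKM against 227 ± 16.3 in o2 (1.16 ± 0.26, limma adjusted p = 0.00611; scaled 1.10, 0.00487), and pdc2 (0.71 ± 0.14, 0.00305; scaled 0.64, 0.00119). In the interaction 1 of 25 was called higher and 0 lower (2 and 3 at an unadjusted p under 0.05), where limma called 9.32% of tested genes, 3.83% higher and 5.49% lower.

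Over the 12 libraries, which share their genotypes and replicate numbers, the level of gpc4 was most like that of gpc3 among all tested genes, and the reverse (Pearson r of log2(FPKM + 1) = 0.995). sdh1 was less like them, at r = 0.902 with gpc4 and 0.907 with gpc3, and 1273 genes ranked as high as gpc4 or higher by their likeness to sdh1. Of 956 genes with a name and a mean of at least 10 FPKM in 1 genotype, those most like sdh1 were RAB15 (0.981), fgp1 (0.981), cks (0.978), KAPP (0.975) and GLK44 (0.969). RAB15 (GRMZM2G165901) stood at 372 ± 81.6 FPKM in WT, 581 ± 146 in PbfRNAi, 1213 ± 199 in the combined genotype and 1453 ± 184.5 in o2 (SD, n = 3), the same order of means as sdh1. After gpc3, gpc4 was most like nfc101 (0.986), Pgk-2 (0.98), clt1-1 (0.977) and Med13 (0.976). After gpc4, gpc3 was most like SUMO1b (0.983), nfc101 (0.983), ALDH10A9 (0.981) and ATEB1A (0.979). Pgk-2, the phosphoglycerate kinase that acts on the product of GAPDH, stood at 92.9 ± 53.6 FPKM in WT, 109 ± 63.4 in PbfRNAi, 196 ± 13.7 in o2 and 247 ± 113 in the combined genotype, and its deviations within genotypes correlated with those of gpc4 at r = 0.993.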

How the data were processed

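RNA of 12 endosperm libraries was profiled; per the labels' protocols it was extracted with TRIzol, purified on RNeasy columns, depleted of ribosomal RNA with Ribo-Zero and sequenced as paired reads of 125 nt on an Illumina HiSeq instrument. The build B73 RefGen_v3 and the tools FastQC, TopHat, Bowtie2 and Cufflinks are named, per the submitters' processing notes, but the sources used here give no versions, parameters, annotation or handling of reads shared by related genes. The authors deposited 1 table of FPKM for 39448 gene models in 12 columns, matched to genotypes by their names. FPKM carries no depth. Among genes of at most 0.5 FPKM, 18.4% to 36.4% had a ratio of replicates 2 and 3 near a ratio of small whole numbers (tolerance 0.02 on the log2 scale), so whole reads were not recovered, depth is unknown and no counting interval is given.

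Values of log2(FPKM + 1), a scale that understates changes of low genes, were tested with limma 3.58.1 (R 4.3.3) in the 17058 genes that reached 1 FPKM in 3 or more libraries. All 12 libraries entered one model of 4 genotype means, with a variance trend and robust empirical Bayes moderation. Tests were two-sided with Benjamini-Hochberg adjustment over all tested genes within each of 5 comparisons, at 0.05, and every adjusted p in the text is from limma. They measure only the spread between these samples. The interaction of the 3 genes had been planned as a test and is given as a description, since it is built from the differences that chose them. The fit was also run on simulated data in which each library was drawn independently of the others. These data held neither the shared deviation of same-numbered libraries nor the shift of all genes between genotypes. The run thus does not bear on either. Tables were handled in python 3.11.15 with pandas 2.3.3 and numpy 2.4.6. Alternatives were another pseudocount, other filters, 2 scalings, the replicate number as a block, limma without trend and robust estimation, fits of 2 genotypes, each library left out, and all replicate 1 libraries left out.

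Names came from a reference table of another assembly (Zm-B73-REFERENCE-NAM-5.0), in which 18906 identifiers matched; of 116 listed symbols 75 were found and 5 were added at that lookup (GAPCP, aldolase2, Pgk-1, Pgk-2 and LDH). No coordinates are given. The genes and lists were chosen with earlier results of these data known. Named in the text are o2 and pbf1, the GAPDH genes, the 2 most abundant called each way and not called of a list (in part), and the 5 genes most like each of the 3. Same-numbered libraries of different genotypes deviated together (r = 0.18 to 0.501 over 18 pairs, against −0.425 to 0.313 for other numbers), which is the only source of the pairing, and blocked values are given where they change a printed call or count.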

Additional observations from a re-analysis of the deposited data

Results flagged for a closer look

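The construct against Pbf went with opposite differences in sdh1 with and without O2, by a log2 interaction of −1.143. It was flagged because all 3 PbfRNAi libraries stood above all 3 WT libraries, and all 3 libraries of the combined genotype below all 3 of o2. Of all tested genes, 30.5% were higher with no overlap in the first comparison and 13.9% lower in the second. The first difference passed (limma adjusted p = 0.0176), but not after either scaling (0.0547 and 0.0741). The second did not pass unscaled (0.128). The interaction was not tested, since it is made of the 2 O2 differences that chose the gene.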

How the results depend on the processing

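The o2 against WT and combined genotype against PbfRNAi differences of sdh1, gpc4 and gpc3 kept their direction in every alternative computed. The genes were chosen for this direction, so nothing is read from it. For sdh1 the 2 differences moved beyond the spread of its libraries to 1.73 and 0.73 with median-of-ratios scaling and to 1.64 and 0.60 with scaling to genes outside the 100 most abundant. With median-of-ratios scaling those of gpc4 fell to 1.59 and 1.26 and those of gpc3 to 1.55 and 1.21. These falls lay within the larger spread of the gpc4 and gpc3 libraries. The sdh1 difference of PbfRNAi against WT no longer passed with these scalings (0.50 and 0.45), and 0.61 to 0.92 was its range with 1 library left out. That of the combined genotype against o2 passed with the second scaling (−0.59) and without the replicate 1 libraries (−0.55). The sdh1 interaction, a description, ranged from −1.35 to −1.04 with 1 library left out. Leaving out the replicate 1 libraries is not independent of the choice of the genes, and it leaves 2 libraries in each genotype. Without replicate 1, gpc4 and gpc3 passed in PbfRNAi against WT (0.66 and 0.51), and their interactions were −0.89 and −0.98. In the combined genotype against o2 gpc3 passed (−0.47), and gpc4 turned to −0.23 and passed as well. gpc4 also turned to −0.0187 with the second scaling, and its range with 1 library left out was −0.24 to 0.35. For gpc3 that range was −0.45 to 0.12, with 0.11 without replicate 3 of the combined genotype, and −0.0287 to 0.95 in PbfRNAi against WT. The cause of these changes was not tested.

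The replicate block changed no call of the 3 genes (sdh1 adjusted p = 0.00659 in PbfRNAi against WT and 0.0637 in the combined genotype against o2). Among the other genes gpc1 turned to −0.27 and −0.35 in o2 against WT and to −0.25 and −0.38 in the combined genotype against PbfRNAi with the 2 scalings, all but the first of these passing as falls (adjusted p = 0.0511, 0.00819, 0.0443 and 0.00293), gpc2 to −0.0505 and −0.13, pdc2 to −0.13 and −0.21, and pdc3 to −0.0923 and −0.17 in o2 against WT. The replicate 1 differences in o2 moved with the 2 scalings to 0.22 and 0.22 for sdh1, 0.19 and 0.19 for gpc4 and 0.11 and 0.11 for gpc3, and that of sdh1 in PbfRNAi turned to −0.0464 with the second.

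Over all tested genes, higher and lower calls in o2 against WT numbered 1510 and 1355 with median-of-ratios scaling, 1124 and 1820 with the second scaling, 268 lower with a minimum of 5 FPKM and 939 lower without the replicate 1 libraries. In the combined genotype against PbfRNAi they numbered 2586 and 2208, 1748 and 3089, 532 lower and 1785 lower, and in PbfRNAi against WT 1934 and 1645, 1783 and 1964, 537 lower, and 6430 and 1645. In the combined genotype against o2 there were 2403 lower with the second scaling, 1586 and 759 with 5 FPKM, and 3792 and 4296 without the replicate 1 libraries, and in the interaction 387 and 561 with 5 FPKM, 991 and 1522 with the replicate block, and 1665 and 5546 without the replicate 1 libraries. With 1 library left out the ranges were 2011 to 3569 higher in PbfRNAi against WT, 768 to 1623 lower in the combined genotype against o2, and 407 to 697 higher and 565 to 1437 lower in the interaction.

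Of the 25 pathway genes, higher calls in o2 against WT numbered 5 with no filter, 1 with either scaling, 15 with the block and 17 without the replicate 1 libraries, and lower calls 3 and 4 with the 2 scalings and 1 with the block or without the replicate 1 libraries. Where the number over all tested genes under the same setting is not given, nothing is read from the count, here or below. In the combined genotype against PbfRNAi they were 3 and 2 higher and 3 and 5 lower with the 2 scalings, and 16 higher and 3 lower without the replicate 1 libraries. In PbfRNAi against WT 9 were higher without the replicate 1 libraries. In the combined genotype against o2 6 were higher and 2 lower with the block, 2 lower with the second scaling, and 9 higher and 7 lower without the replicate 1 libraries. In the interaction 2 were higher with the block or without the replicate 1 libraries, and 5 lower without these. With 1 library left out the ranges were 3 to 12 higher in o2 against WT, 1 to 3 higher and 1 to 2 lower in PbfRNAi against WT, 1 to 3 lower in the combined genotype against o2, and 0 to 2 higher and 0 to 2 lower in the interaction. FPKM gives no depth, so counting error is unknown, and 3 libraries a genotype limit each test.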

Other observations

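The ratio of gpc4 to gpc3 in FPKM lay between 1.07 and 1.19 in the 6 libraries without the construct against Pbf, at 1.11 ± 0.0326 in WT and 1.15 ± 0.0369 in o2 (SD, n = 3), and between 1.23 and 1.36 in the 6 libraries with it, at 1.29 ± 0.0631 in PbfRNAi and 1.33 ± 0.0199 in the combined genotype. The ratio was looked at after the values had been seen, it has no test, and it depends on how reads shared by the 2 genes were divided. The ratio of sdh1 to gpc4 ran from 2.68 in replicate 1 of the combined genotype to 8.01 in PbfRNAi replicate 3, and was lowest in replicate 1 in every genotype except o2, where it lay between 5.48 and 5.73.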
